A study of Sorghum bicolor with 9 samples.

Results

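The difference between anthers with mature pollen (A3) and anthers in meiosis up to the tetrad (A1) was described in sorghum, across all loci and, in more depth, across loci of stress-related genes. All groups are whole anthers of the cultivar M35-1 from plants raised in an open field, without any treatment. The groups are A3 (mature pollen) and A1 (meiosis to tetrad), with A2 (microspores) in between, each with 3 libraries of stranded total RNA. Anthers were sorted into stages by their length, so each group also holds the anther wall and connective tissue. The deposited table holds 1 combined FPKM (fragments scaled by transcript length and library size) per locus and stage. No value below therefore has a replicate error, no difference was tested, and the read depth behind a value is unknown. Members are the loci with at least 1 Sobic gene ID and 1 FPKM or more in A3 or A1, which were 19462 of 40082 loci in all and of 33115 loci with a gene ID. The measure is the log2 of A3 over A1 after 0.5 FPKM was added to each value, and every fold below is on that scale, which understates the difference of low loci. A locus is called higher or lower in A3 at 2-fold or more. A listed 0 gets no fold. In whole anthers, fewer cells of a type and less RNA per cell cannot be told apart.

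Between these stages the male germ line passes from the recombination of homologous chromosomes to a grain with stored sugars, lipids and mRNA. The tapetum, the innermost wall layer that feeds the microspores and supplies the outer pollen wall, degenerates on the way. Pollen loses water as it matures, and dehydrins, late embryogenesis abundant (LEA) proteins and heat shock proteins, which keep other proteins folded or membranes intact when water is short or temperature high, are known from pollen as well as from stressed leaves. Meiosis and the tapetum stages are known as the steps of cereal anther development most easily damaged by heat, cold and drought.

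Marker genes taken from the study's own account of the stages followed the labels, and since the study named them on these samples they are no independent check. Of 11 meiotic genes, 10 were lower in A3, with summed levels of 66.1 FPKM in A3 and 239 FPKM in A1. DMC1, the meiotic recombinase, was at 3.14 FPKM in A3 and 15.7 FPKM in A1. The labels name the tissue as male gametophyte, but the anthers also held tapetum transcripts. Of 13 genes listed for the tapetum, 12 were lower in A3, with summed levels of 193 FPKM in A3 and 10282 FPKM in A1. Most of the A1 sum came from the lipid transfer protein genes LTPL44 and LTPL45, whose rice counterparts the study places in tetrads or microspores. Without them, 10 of 11 were lower in A3, with sums of 191 FPKM in A3 and 2771 FPKM in A1. All 5 mature pollen genes were higher in A3, with summed levels of 279 FPKM in A3 and 0.767 FPKM in A1. The exceptions were a low copy of ZEP1, a synaptonemal complex gene, at 0.0273 FPKM in A3 and 0.444 FPKM in A1, and TDR, a tapetum transcription factor gene, at 101.2 FPKM in A3 and 175 FPKM in A1.

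Of the 19462 members, 4976 were at least 2-fold higher in A3 (25.6%) and 3686 at least 2-fold lower (18.9%), and 55.5% lay within 2-fold. At 16-fold or more, 866 loci were higher and 357 lower. The median log2 value was 0.02, with 5% of loci below −2.58 and 5% above 3.78. The FPKM of all loci summed to 815871 in A3 and 638053 in A1. When each stage was brought to a common sum, the median became −0.34, with 4065 loci higher and 5193 lower, so that 43.9% of the called loci were higher in A3 in place of 57.4%. Values below are not rescaled and are to be read against this shift.

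**Figure D1:**
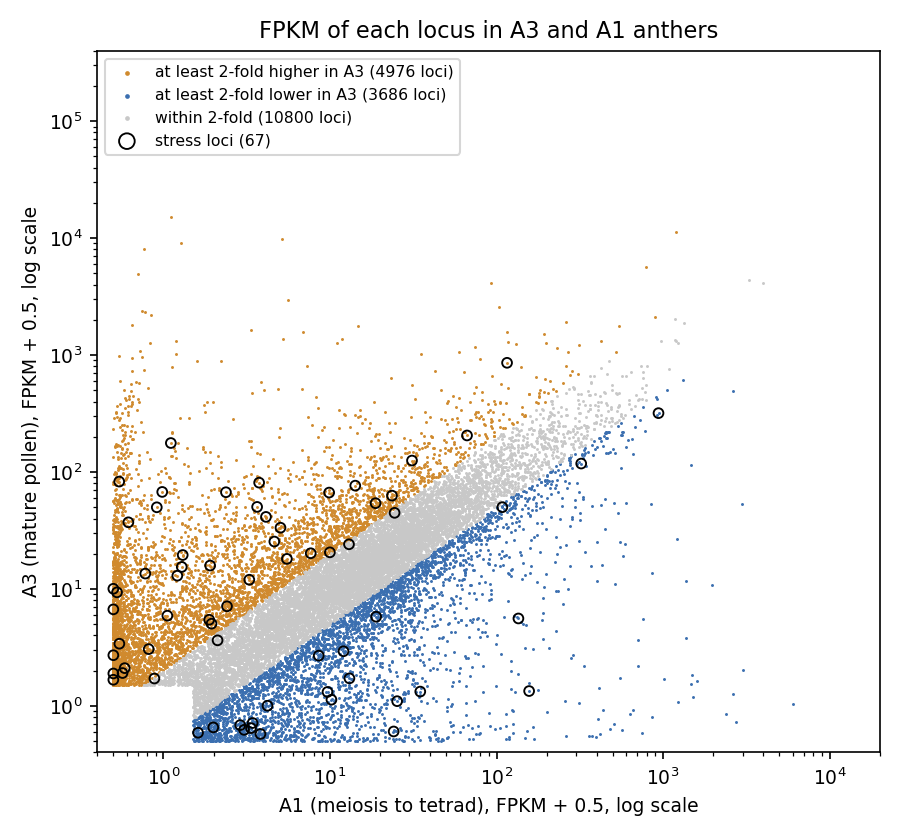
FPKM plus 0.5 of each of 19462 loci in A3 (vertical) and A1 (horizontal) on log axes, with 1 point per locus, colours for the 2-fold limit and open circles for 67 stress loci. Loci higher in A3 crowd along the left edge, where A1 is near 0, and the stress loci lie on both sides of the diagonal.

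The loci higher in A3 had a median of 11.6 FPKM in A3 and 0.957 FPKM in A1, and those lower in A3 a median of 1.97 FPKM in A3 and 12.6 FPKM in A1. The higher loci held 47.0% of the members' summed FPKM in A3 and 7.22% in A1. The lower loci held 5.88% in A3 and 34.1% in A1. As both sets were chosen by these values, the shares describe only how much of each transcript pool they make up. Of the 1098 members with a mean of the A3 and A1 values at 100 FPKM or more, 47.4% were past 2-fold, against 36.7% of the 8602 with a mean of 10 to 100 FPKM. The share was 48.5% of the 8693 members with a mean of 1 to 10 FPKM, so it did not rise steadily with level. It was 71.8% of the 1069 below 1 FPKM. Those loci entered only by 1 FPKM or more in 1 stage, with the other stage below 1 FPKM. Their share is thus at least partly set by the rule for members, and nothing is read from it. On the 10 chromosomes, 24.2% to 28.7% of members were higher in A3 and 17.2% to 20.4% lower.

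The part of the authors' table of matched genes used here covers 1594 genes of chromosomes 1 and 2. All of them had passed the study's own test between a pair of these stages. Of these, 1505 were members, 868 higher and 601 lower in A3. Counts over annotated lists are therefore counts within a set chosen for change on these same samples and are no independent evidence of a direction. As 97.6% of the 1505 were past 2-fold, a list median mainly shows which direction holds more loci. Genes of other chromosomes and genes that did not pass are missing, apart from those the study names, so no list is a whole gene family.

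The 5 annotated loci with the largest log2 values in favour of A3 ranged widely in kind. A pollen allergen gene (Sobic.001G332000) was at 749 FPKM in A3 and 0.267 FPKM in A1. A glycosyl hydrolase gene matching a periplasmic beta-glucosidase (Sobic.001G089300) was at 279 FPKM in A3 and 0.0400 FPKM in A1. The lipid transfer protein gene LTPL50 (Sobic.002G129600) was at 892 FPKM in A3 and 1.71 FPKM in A1, and an aldose 1-epimerase gene (Sobic.001G355300) at 206 FPKM in A3 and 0.0886 FPKM in A1. Sobic.002G260100, which has no described match, was at 235 FPKM in A3 and listed at 0 in A1 and A2. None of these loci was above 1.71 FPKM in A1, and those under 0.5 FPKM there depend on the pseudocount for the size of their difference.

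The 5 with the largest values in favour of A1 were at 0.131 to 3.34 FPKM in A3 and at 257 to 1486 FPKM in A1. A proline-rich protein gene of the Ole e 1 family (Sobic.001G438400) was at 1.04 FPKM in A3 and 1466 FPKM in A1. The lipid transfer protein gene LTPL45 (Sobic.002G270400) was at 1.35 FPKM in A3 and 1486 FPKM in A1. A gene matching ribosome-inactivating proteins (Sobic.001G133100), which are enzymes that act on ribosomal RNA, was at 0.131 FPKM in A3 and 482 FPKM in A1. Sobic.001G068800, described only as an expressed protein, was at 3.34 FPKM in A3 and 1364 FPKM in A1. Last came the match of rice CYP704B2 (Sobic.001G491400), a cytochrome P450 that hydroxylates fatty acids for the pollen wall, at 0.609 FPKM in A3 and 257 FPKM in A1. Loci of other chromosomes could not enter these rankings, and larger differences in both directions were among them. Sobic.006G059400 was at 15282.5 FPKM in A3 and 0.603 FPKM in A1, and LTPL44 (Sobic.007G180700) at 0.543 FPKM in A3 and 6025 FPKM in A1.

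The log2 of A3 over A1 is the sum of a first step (A2 over A1) and a second step (A3 over A2). For most called loci the second step alone passed 2-fold, which held for 4253 of the 4976 higher loci (85.5%) and 2872 of the 3686 lower loci (77.9%). A further 957 members (4.92%) were past 2-fold by 2 small steps, each under 2-fold and both in the same direction. Another 173 (0.889%) were past 2-fold by opposed steps, each of 2-fold or more and in opposite directions. The rest comprised 213 loci with the first step alone past 2-fold and 194 with 2 large steps in the same direction. A net difference hid a further 105 loci that had opposed steps of 2-fold or more and ended within 2-fold of A1.

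The loci with 2 small steps were lower in A3 in 578 cases and higher in 379. The lower ones had medians of 18.8 in A1, then 15.5 in A2 and 8.25 FPKM in A3. The higher ones had medians of 4.23 in A1, then 5.96 in A2 and 10.7 FPKM in A3. By construction neither kind can reach a net of 4-fold. In both directions the second step was the larger, with medians of −0.34 and −0.86 for the lower loci and of 0.41 and 0.85 for the higher loci in the first and second step.

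The loci with opposed steps were lower in A3 in 123 cases and higher in 50. Of the 123 lower loci, 118 peaked in A2, with medians over all 123 of 9.28 in A1, then 52.0 in A2 and 0.230 FPKM in A3. Of the 50 higher loci, 32 dipped in A2 and 18 peaked there. A lower net value thus mostly stood for a microspore-stage peak, while higher net values were divided between dips and peaks.

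**Figure D2:**
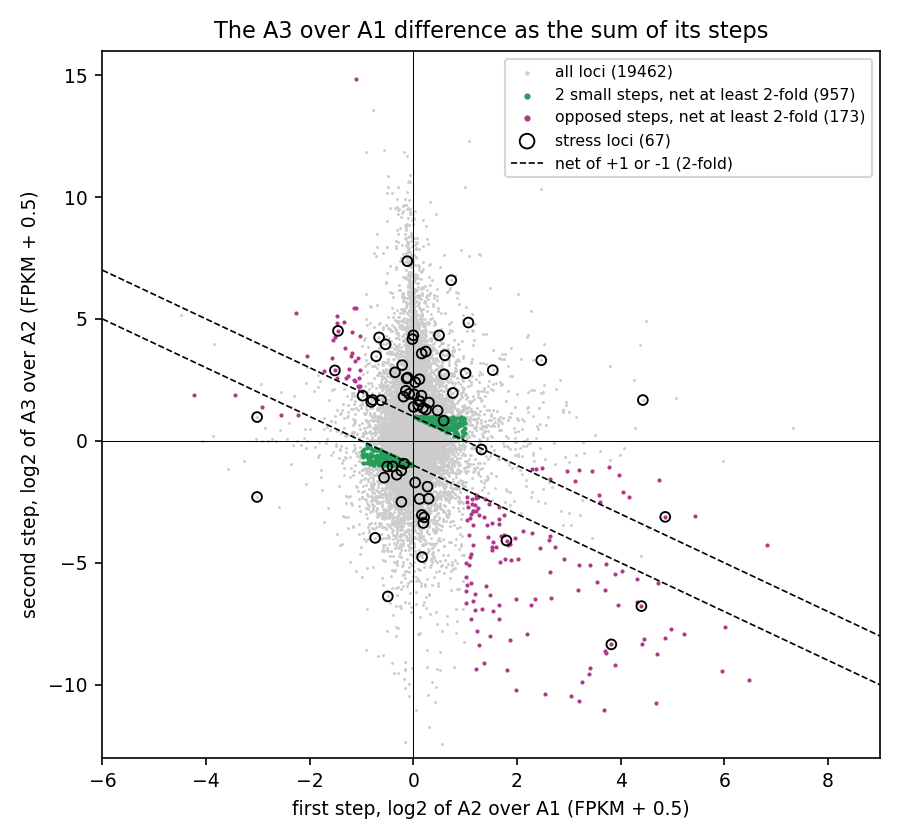
First step (log2 of A2 over A1, horizontal) against second step (log2 of A3 over A2, vertical) for 19462 loci, 1 point each, with dashed lines where their sum is 1 or −1. The cloud is tall and narrow, the 957 loci with 2 small steps fill the triangles beside the origin, and the opposed loci lie mostly at the lower right, where A2 is the highest stage.

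Stress loci were defined as 75 loci. They are the annotated genes whose Arabidopsis or rice match, or pathway class, names heat shock proteins, DnaJ proteins, heat shock factors, LEA proteins and dehydrins, cold, dehydration or universal stress proteins, glutathione S-transferases, antioxidant enzymes, pathogenesis-related proteins or stress, together with 10 genes that the study ties to stress in rice or sorghum. At 1 FPKM or more in A3 or A1 there were 67, of which 41 were higher in A3, 22 lower and 4 within 2-fold, beside 25.6% higher and 18.9% lower of all members. Their median log2 value was 1.63, against 0.02 over all members and 1.55 over all annotated members. The 67 loci had their highest stage in A3 in 43 cases, in A2 in 13 and in A1 in 11. Their summed levels were 2203 in A1, then 2193 in A2 and 2935 FPKM in A3. Without 1 dehydrin gene (Sobic.001G149500) the sums were 2087 in A1, then 2094 in A2 and 2077 FPKM in A3, so that this gene carried the difference.

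Most stress loci were carried by the second step as well, 48 of the 67, and the first step was under 2-fold in 53 of 67. Of the 41 higher loci, 15 had a first step in the other direction, of any size, and so did 11 of the 22 lower loci. Over all members this held for 39.2% of the higher and 30.5% of the lower loci. By the limits above, 2 of the 67 loci had 2 small steps and 6 had opposed steps, beside 4.92% and 0.889% of all members. Since a list chosen for change excludes loci without any, nothing is read from this difference.

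The locus with 2 small steps and a lower level in A3 matched the mitochondrial HSP70-2 of Arabidopsis (Sobic.001G193500, chromosome 1, 17225805 to 17230038 of genome version v3.0.1). Mitochondrial HSP70 pulls imported proteins into the matrix and helps them fold. Its level was 107.8 in A1, then 95.3 in A2 and 49.5 FPKM in A3. It was 2.16-fold lower in A3 than in A1, with a first step of −0.18 and a second of −0.94. With each stage at a common FPKM sum, or with quantile normalization, it remained lower but the second step passed 2-fold.

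The locus with 2 small steps and a higher level in A3 encoded a C2 domain protein placed in the cold stress class (Sobic.002G355500, chromosome 2, 71870205 to 71873092). C2 domains bind membrane lipids, many of them depending on calcium. Its level was 23.1 in A1, then 34.8 in A2 and 62.3 FPKM in A3, a 2.66-fold higher value in A3 than in A1 made of steps of 0.59 and 0.83. A second gene of the same C2 family and class, Sobic.002G138700, was at 2.78 in A1, then 3.53 in A2 and 11.5 FPKM in A3, so that its second step alone passed 2-fold.

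Opposed steps with a lower net value were found at 3 stress loci, all with a peak in A2. The largest was the match of rice OsDIL, a lipid transfer protein induced by drought in rice (Sobic.001G266600, chromosome 1, 50789114 to 50791164). It was at 24.8 in A1, then 357 in A2 and 0.598 FPKM in A3. The net difference of 23.0-fold lower in A3 was thus the remainder of a 14.1-fold higher value in A2 than in A1 and a much larger drop after A2, a log2 of −8.35.

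The match of Arabidopsis SPX domain gene 1 (Sobic.001G259100, chromosome 1, 31011169 to 31012875) also peaked in A2. SPX proteins sense the phosphate state of the cell and hold back the phosphate starvation response. It was at 2.85 in A1, then 70.4 in A2 and 0.146 FPKM in A3, 5.19-fold lower in A3 than in A1, although A2 stood 21.1-fold above A1.

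The third was a DnaJ gene (Sobic.001G189700, chromosome 1, 16767935 to 16769266), whose protein family delivers unfolded proteins to HSP70. It was at 2.55 in A1, then 10.1 in A2 and 0.124 FPKM in A3, 4.89-fold lower in A3. In all 3 of these loci A3 was under 1 FPKM and the lowest stage.

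Opposed steps with a higher net value were found at another 3 stress loci, 2 of them with a dip in A2. The match of heat shock cognate 70-1 (Sobic.001G418600, chromosome 1, 69932394 to 69935701), a cytosolic HSP70 that is present without stress in Arabidopsis, was at 1.44 in A1, then 0.181 in A2 and 4.55 FPKM in A3. It was 2.60-fold higher in A3 than in A1. A glutathione S-transferase gene (Sobic.001G319500, chromosome 1, 60742187 to 60743315) had the same form, with 1.41 in A1, then 0.196 in A2 and 15.4 FPKM in A3, 8.32-fold higher in A3. At 0.181 and 0.196 FPKM these dips lie where the pseudocount sets the size of the steps.

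The remaining locus, matching the rice glutathione S-transferase GSTU6 (Sobic.001G318700, chromosome 1, 60678325 to 60679363), was listed at 0 in A1 and stood at 14.0 FPKM in A2 and 1.17 in A3. It counts as higher in A3, yet its A3 level was just above the 1 FPKM limit and far below its A2 level.

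**Figure D3:**
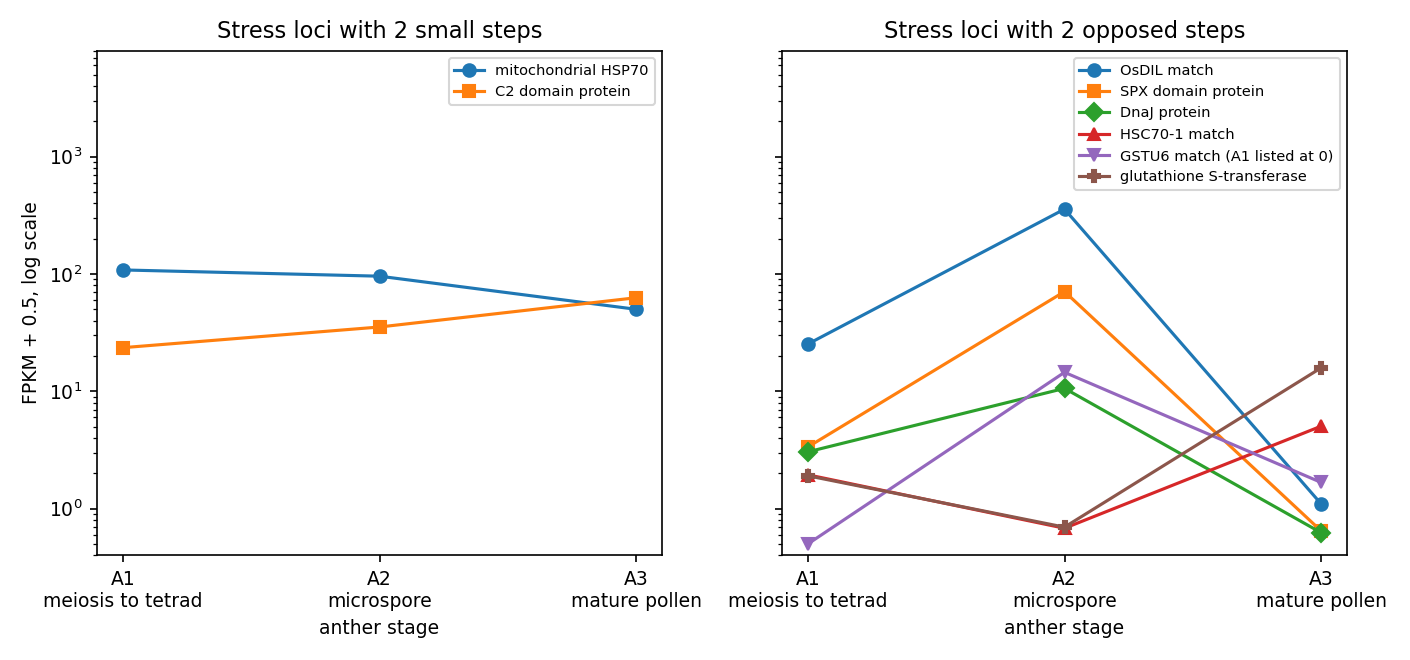
FPKM plus 0.5 on a log axis in A1, A2 and A3 for the 2 stress loci with 2 small steps (left) and the 6 with opposed steps (right), 1 line per locus and 1 combined value per stage. On the left 1 line falls and 1 rises without a turn, and they cross between A2 and A3, while on the right 4 loci peak in A2 and 2 dip there.

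No stress locus that passed the 1 FPKM limit had opposed steps of 2-fold or more and a net within 2-fold. Of the 4 stress loci within 2-fold, an HSP20-like gene came nearest. This gene of a small heat shock protein (Sobic.001G426000) was at 23.9 in A1, then 11.9 in A2 and 44.3 FPKM in A3, a net log2 of 0.87 from steps of −0.98 and 1.85. The match of rice OsCML16, a calmodulin-like calcium sensor (Sobic.003G082600), was at 12.5 in A1, then 7.05 in A2 and 23.6 FPKM in A3, and the match of OsABA8Ox3, which breaks down abscisic acid (Sobic.007G156300), at 1.61 in A1, then 0.703 in A2 and 3.14 FPKM in A3. All 3 dipped in A2 and ended above A1 by a net log2 of 0.78 to 0.89. A basic chitinase gene (Sobic.001G516000) instead peaked in A2, with 0.382 in A1, then 1.69 in A2 and 1.21 FPKM in A3, and lay just short of the 2-fold limit at a net log2 of 0.96. Just past it was a match of rice MID1, a MYB regulator of the drought response (Sobic.003G365600), at a net log2 of 1.04 with 9.48 in A1, then 5.97 in A2 and 20.1 FPKM in A3. This call was lost at a common FPKM sum and with quantile normalization.

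Of the 8 stress loci below 1 FPKM in both A3 and A1, 4 had a peak in A2 that the comparison of A3 with A1 does not see. A LEA-related gene matching RCLEA2 (Sobic.002G344400) was at 11.3 FPKM in A2, with 0.547 in A3 and a listed 0 in A1. A basic secretory protein gene (Sobic.001G209300) was at 0.129 in A1, then 7.05 in A2 and 0.108 FPKM in A3. A match of the cell wall invertase OsINV4, which splits sucrose outside the cell (Sobic.001G099700), was at 0.232 in A1, then 5.15 in A2 and 0.390 FPKM in A3. An A20/AN1 zinc finger stress protein gene (Sobic.001G062200) was at 0.0683 and 1.23 FPKM in A1 and A2 and listed at 0 in A3. The remaining 4 were thaumatin, dirigent and disease resistance genes that stayed below 1 FPKM in every stage.

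Chaperone genes differed in direction. The 3 genes of the HSP70 and HSP90 families comprised 1 higher and 2 lower in A3. Besides the HSP70 genes above, the match of HSP81.4, a cytosolic HSP90 (Sobic.002G243500), was at 322 in A1, then 244 in A2 and 118 FPKM in A3, 2.73-fold lower in A3. Its steps of −0.40 and −1.05 place it just outside the class of 2 small steps. Of 6 DnaJ genes, 3 were higher in A3 and 3 lower. The largest higher difference was that of Sobic.001G024100, with 19.0 FPKM in A3 and 0.805 FPKM in A1, and the DnaJ gene with the highest A1 level, Sobic.001G199500, was at 5.29 FPKM in A3 and 18.4 FPKM in A1.

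Small heat shock protein genes, whose products hold unfolded proteins in solution, were represented by the HSP20-like gene above and by a gene that the study matched to rice small heat shock proteins (Sobic.003G039400). This second gene was at 11.5 in A1, then 0.990 in A2 and 2.43 FPKM in A3, 4.11-fold lower in A3. Among the stress loci called higher or lower, it was the only one whose first step alone passed 2-fold, and its second step was an incomplete return. The 2 listed heat shock factor genes went in opposite directions. The match of heat shock factor 4, a factor that binds heat shock promoters (Sobic.002G225300), was at 0.483 in A1, then 20.7 in A2 and 67.0 FPKM in A3, and heat shock factor B4 (Sobic.002G224200) at 0.0897 FPKM in A3 and 1.11 FPKM in A1. With a pseudocount of 1 FPKM, heat shock factor B4 was within 2-fold.

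All 7 members of the list of cold, dehydration and universal stress proteins were higher in A3, with a median log2 of 2.01, beside 868 of the 1505 annotated members. The list of LEA proteins and dehydrins had 2 higher and 2 lower. Its median of 0.41 fell between log2 values of −2.08 and 2.89 and describes no locus. With a pseudocount of 0.1 FPKM that median became −0.12. The low temperature and salt responsive gene matching OSR8 (Sobic.002G294500), a small membrane protein gene, was at 205 FPKM in A3 and 66.0 FPKM in A1. The cold-regulated gene COR413 (Sobic.001G077000), for a membrane protein, was at 125 FPKM in A3 and 30.6 FPKM in A1. A match of the early dehydration gene ERD4 (Sobic.002G034500) was at 75.9 FPKM in A3 and 13.7 FPKM in A1. A universal stress protein gene (Sobic.001G363100) reached its level in 2 large steps of the same direction, with 0.412 in A1, then 4.54 in A2 and 49.4 FPKM in A3.

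The dehydrin gene Sobic.001G149500 was the most abundant stress locus in A3, with 858 FPKM in A3 and 115 FPKM in A1. A group 2 LEA protein gene (Sobic.002G103900) was at 8.85 FPKM in A3 and 0.0261 FPKM in A1. The other members of the LEA list were lower in A3. They were genes of the LEA hydroxyproline-rich glycoprotein family, which match harpin-induced proteins rather than desiccation proteins, and the larger, Sobic.001G022400, was at 0.816 FPKM in A3 and 9.16 FPKM in A1. The list of antioxidant enzymes held 1 gene, a copper/zinc superoxide dismutase that removes superoxide (Sobic.001G371900). It was 2.95-fold lower in A3, with 938 in A1, then 661 in A2 and 318 FPKM in A3.

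Of 11 listed glutathione S-transferase genes, whose enzymes couple glutathione to reactive compounds, 9 were higher in A3 and 2 lower. Their median log2 was 1.92. That median was 3.36 with a pseudocount of 0.1 FPKM and 3.06 over the loci at 5 FPKM or more in A3 or A1. In 3 of them a stage was listed at 0. The IN2-1 match (Sobic.001G412800) was the most abundant of those higher in A3, with 66.2 FPKM in A3 and 9.38 FPKM in A1. Those lower in A3 were the matches of Arabidopsis THETA 3 (Sobic.002G167800) at 2.19 FPKM in A3 and 8.06 FPKM in A1, and of F11 (Sobic.001G514400) at 0.155 FPKM in A3 and 1.49 FPKM in A1. The rice match of the THETA 3 gene is a transposon protein, so its place in the list is uncertain.

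Both opposed glutathione S-transferase loci lay in a stretch of 212240 bp on chromosome 1, from 60531076 to 60743315, together with 3 further genes of the family. Those 3 were higher in A3 by the second step alone. Sobic.001G317000 was at 0.787 in A1, then 0.314 in A2 and 14.9 FPKM in A3, and Sobic.001G317200 at 0.0676 in A1, then 0.118 in A2 and 1.41 FPKM in A3. Sobic.001G318900 was listed at 0 in A1 and stood at 0.00422 FPKM in A2 and 1.39 in A3. All 5 listed genes thus counted as higher in A3. The course was a peak in A2 at 1, a dip of 2-fold or more at another and smaller first steps at the other 3. The stretch held 28 loci with a gene ID, 8 of them members. As the 5 genes come from a set chosen for change, their shared direction is no result about the stretch. Whether these genes are alike enough to share reads was not examined. How shared reads were assigned is not given in the sources used here, so levels within this cluster are uncertain.

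Pathogenesis-related genes were divided, with 6 of 11 higher in A3, 4 lower and 1 within 2-fold. All 4 lower ones were thaumatin-like genes, led by Sobic.001G449200 at 0.840 FPKM in A3 and 156 FPKM in A1, while another thaumatin gene, Sobic.002G117300, was at 13.0 FPKM in A3 and 0.278 FPKM in A1. A Bet v I family gene matching the abscisic acid receptor PYR1-like 12 (Sobic.001G401300) was at 40.8 FPKM in A3 and 3.63 FPKM in A1. In the biotic stress class, 8 of 15 were higher and 6 lower. A lectin gene of the mannose-binding type (Sobic.002G093700) reached 0.104 FPKM in A3 by 2 large steps of the same direction, with 23.6 FPKM in A1 and 2.48 in A2, and a glycosyl hydrolase 81 gene (Sobic.002G189100) was at 66.7 FPKM in A3 and 1.87 FPKM in A1.

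The abiotic stress class of 21 loci had 15 higher, 5 lower and 1 within 2-fold, with a median log2 of 1.63. Its largest difference was at an Ole e 1 pollen allergen gene (Sobic.002G140500), with 82.3 FPKM in A3 and 0.0420 FPKM in A1, a family named for an olive pollen protein and not for a stress response. Among the genes tied to stress by the study, a second MID1 match (Sobic.009G154200) was at 3.15 in A1, then 6.84 in A2 and 49.8 FPKM in A3. A second OsINV4 match (Sobic.006G070032) was at 176 FPKM in A3 and 0.607 FPKM in A1, and the match of another rice invertase, OsINV1, (Sobic.006G255600), at 36.7 FPKM in A3 and 0.115 FPKM in A1. Sobic.008G058500, which the study describes as a putative gene of the cytochrome P450 CYP71E1, was at 2.21 FPKM in A3 and listed at 0 in A1.

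Outside the stress lists, annotated loci with 2 small steps numbered 36 lower and 19 higher, the mitochondrial HSP70 and C2 genes included. The lower ones held genes of translation, RNA and protein folding. A ribosomal protein S4 gene (Sobic.002G384700) was at 93.0 in A1, then 57.9 in A2 and 35.8 FPKM in A3, and the lysyl-tRNA synthetase gene Sobic.001G178400 at 63.1 in A1, then 45.8 in A2 and 23.9 FPKM in A3. The nucleolar NOP56-like gene Sobic.001G372800 was at 100 in A1, then 70.3 in A2 and 41.4 FPKM in A3, and the protein disulfide isomerase gene PDIL2-3 (Sobic.002G222200) at 116 in A1, then 87.6 in A2 and 45.2 FPKM in A3. Their net log2 values of −1.26 and −1.35 lay near the −1.11 of the mitochondrial HSP70 gene (Sobic.001G193500). A DNA repair gene was among them as well, KU70 (Sobic.002G003300), a gene of end joining, at 9.43 in A1, then 6.49 in A2 and 3.68 FPKM in A3. At a common FPKM sum the lysyl-tRNA synthetase, NOP56-like and PDIL2-3 genes remained lower but left the class of 2 small steps. With quantile normalization the lysyl-tRNA synthetase and PDIL2-3 genes left it too.

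The annotated loci higher by 2 small steps included several metabolic enzymes. The 10-formyltetrahydrofolate synthetase gene Sobic.002G220200, of folate metabolism, was at 30.9 in A1, then 40.2 in A2 and 79.2 FPKM in A3. The genes of acyl-activating enzymes 7 (Sobic.001G397400) and 17 (Sobic.002G189400) were at 30.9 in A1, then 50.4 in A2 and 74.0 FPKM in A3 and at 12.3 in A1, then 22.2 in A2 and 35.2 FPKM in A3. A calmodulin-binding transcription activator gene (Sobic.001G474600), of a family that regulates cold-response genes in Arabidopsis, was at 15.6 in A1, then 27.6 in A2 and 40.5 FPKM in A3. In the acyl-activating enzyme and calmodulin-binding genes the first step was the larger. At a common FPKM sum the folate, acyl-activating enzyme 7 and calmodulin-binding genes were within 2-fold.

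Annotated loci with opposed steps and a lower net value numbered 20, all with a peak in A2, and they included genes of the pollen wall. CYP704B2 peaked at 1498 FPKM in A2, and the polyketide synthase gene OsPKS2 (Sobic.002G115700) was at 759 in A1, then 1820 in A2 and 5.06 FPKM in A3. The match of OsNP1 (Sobic.001G320300), an oxidoreductase needed for pollen wall formation in rice, was at 10.8 in A1, then 293 in A2 and 0.179 FPKM in A3. Proteases were also among them, with the aspartyl protease gene Sobic.002G222700 at 5.18 in A1, then 177 in A2 and 0.347 FPKM in A3 and a subtilase gene (Sobic.001G170700) at 2.22 in A1, then 53.5 in A2 and 0.0610 FPKM in A3. The gibberellin 20-oxidase 2 gene (Sobic.001G005300), of gibberellin synthesis, was at 7.67 in A1, then 60.9 in A2 and 1.64 FPKM in A3. The OsDIL match above had a course of the same form.

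The 12 annotated loci with opposed steps and a higher net value comprised 6 peaks and 6 dips. Jasmonate ZIM-domain protein 1 (Sobic.001G482700), a repressor of jasmonate signalling, dipped with 18.18 in A1, then 8.51 in A2 and 41.5 FPKM in A3, and was within 2-fold at a common FPKM sum. Purple acid phosphatase 3 (Sobic.001G442300), which releases phosphate, dipped with 3.05 in A1, then 0.709 in A2 and 20.6 FPKM in A3. The lipid transfer protein gene LTPL62 (Sobic.002G129800) peaked with 0.172 in A1, then 75.3 in A2 and 3.43 FPKM in A3.

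Of 39 pathway classes with at least 7 measured loci, 27 had a median above 0. All annotated members, from which the classes are drawn, leaned the same way, with 868 of 1505 higher, 601 lower and a median log2 of 1.55. Class counts here and below are to be read against that share, and nothing is read from those near it. Chromatin, RNA-binding and RNA processing classes lay on the lower side. In DNA synthesis and chromatin structure, 25 of 27 loci were lower in A3 and 2 higher, with a median log2 of −2.02. Neighbouring histone H2A 12 genes, Sobic.001G416800 and Sobic.001G416900, were at 23.8 and 15.1 FPKM in A3 and at 591 and 275 FPKM in A1. All 10 RNA-binding loci and 13 of 17 RNA processing loci were lower, among them Dicer-like 3 (Sobic.001G214000), which cuts precursors of silencing RNA, at 0.281 FPKM in A3 and 31.5 FPKM in A1. Cell organisation was divided, with 17 of 27 lower and 10 higher. The end-binding protein 1C gene (Sobic.001G205000), of microtubule tips, was at 0.987 FPKM in A3 and 53.4 FPKM in A1, whereas the actin filament genes villin 2 (Sobic.001G366700) and actin depolymerizing factor 11 (Sobic.002G303500) were at 47.8 and 42.6 FPKM in A3 and at 1.16 and 0.360 FPKM in A1.

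Cell wall modification, glycosyltransferase and sugar transport classes lay on the higher side. In cell wall modification, 11 of 13 loci were higher, with a median log2 of 4.18, and in 6 of the 13 a stage was listed at 0. The expansin genes Sobic.001G539880 and Sobic.001G539820, whose products loosen walls, were at 113 and 83.5 FPKM in A3 and at 0.0372 and 0.0253 FPKM in A1. How alike their sequences are was not examined, so their shares of reads are uncertain. All 15 UDP-glycosyltransferase loci were higher, with a median of 3.01, led by the match of UGT73B4 (Sobic.001G093100) at 105 FPKM in A3 and 0.181 FPKM in A1. At a common FPKM sum 13 of 14 of them were higher and 0 lower, and with quantile normalization 12 of 15 were higher and 1 lower. The class of cell wall proteins instead had 4 of 7 lower, with a median of −1.83, and cell wall precursor synthesis 4 of 7 higher, or 3 in each direction at a common FPKM sum. Sugar transport had 9 of 11 higher. Its sugar transporter 1 gene (Sobic.002G338500) was at 6.31 in A1, then 76.7 in A2 and 91.0 FPKM in A3, so that most of its net difference lay in the first step. In abscisic acid metabolism, 6 of 7 were higher, and the 9-cis-epoxycarotenoid dioxygenase gene of its synthesis (Sobic.001G155300) was at 1.83 in A1, then 9.47 in A2 and 17.9 FPKM in A3. In amino acid degradation, 5 of 7 were higher, and the proline oxidase gene (Sobic.001G304700) reached 83.8 FPKM in A3 through 12.9 in A2, with 3.09 FPKM in A1.

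Broad regulatory classes held many loci in each direction. Of 110 transcription regulation loci, 56 were higher and 51 lower, with a median log2 of 1.12. Of 75 protein degradation loci, 44 were higher and 28 lower, with a median of 1.46, and of 47 loci of protein modification 28 were higher and 16 lower, with a median of 1.71. The median of all annotated members was 1.55. The auxin repressor gene OsIAA24 (Sobic.001G056100) was at 328 FPKM in A3 and 1.27 FPKM in A1, and the MYB4 match (Sobic.002G279100) at 3.56 FPKM in A3 and 99.97 FPKM in A1. Fatty acid synthesis and elongation had 10 of 20 loci in each direction, and its median of 0.09 changed sign at a common FPKM sum and with quantile normalization.

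**Figure D4:**
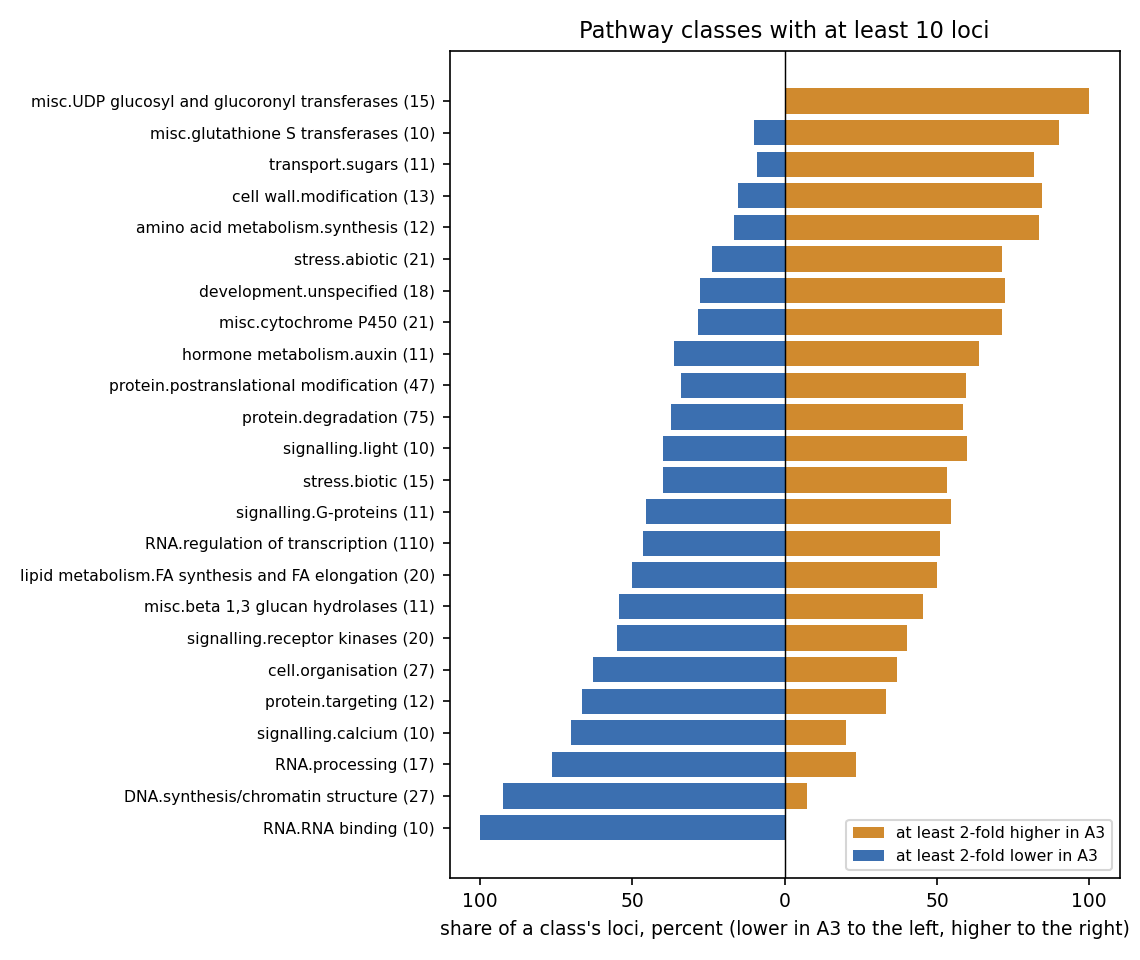
Share of the loci of each pathway class that were at least 2-fold higher in A3 (right) or lower (left), in percent, for classes of at least 10 loci with their number in brackets. UDP-glycosyltransferases stand at the top with 15 of 15 higher and RNA binding at the bottom with 10 of 10 lower.

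All 3 A3 libraries carry the same project code in their descriptions, and so does 1 of the 3 A1 libraries, while the other A1 libraries carry a second code. The A2 libraries are divided as those of A1 are, with 1 under the code of A3 and 2 under the second. The mix of codes is thus the same on both sides of the first step and differs across the second step and the net difference. As the libraries of a stage were combined before deposit, project and stage cannot be told apart for any locus in A3 against A1 or A2.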

How the data were processed

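RNA of whole anthers was sequenced in 9 libraries, 3 per stage. The authors trimmed adapters, removed rRNA reads with Bowtie2 2.2.9, aligned reads with STAR to sorghum genome v3.0.1, estimated expression with StringTie 1.3.3b and ran Cuffdiff between stages (versions as in the submitters' processing notes). The FPKM values deposited by the authors are 1 per locus and stage, linear, with the 3 libraries combined, so limma and any other test, and intervals, could not be used. The number of reads per library is not in the FPKM table and the depth behind each value is unknown.

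Differences were computed with Python 3.11.15, numpy 2.4.6 and pandas 2.3.3 as log2 of A3 over A1, A2 over A1 and A3 over A2 after adding 0.5 FPKM. Loci needed a Sobic ID and 1 FPKM in A3 or A1, and 939 of them hold several IDs. The rule for the step classes was run on simulated loci with A1 at 5 FPKM or more and steps set away from the limits. That checks the code and does not bear on the classes of low loci or of loci near a limit. Deposited starts count from 0, so 1 was added: 744 then equal a RefSeq gene start (assembly Sorghum_bicolor_NCBIv3), against 170 otherwise.

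Names and pathway classes come from the part of the study's table of differentially expressed genes that covers chromosomes 1 and 2. Only its descriptions were used, and its fold changes and test results were not. The RefSeq table holds no product names, so lists planned from it were made from these descriptions. Members and lists were chosen with earlier results of these data known. Named genes are stress loci of each step class, up to 2 per direction of each stress list with the largest log2 value and 10 FPKM or more in A3 or A1, the stress genes of the study, and the 5 annotated loci with the largest value in each direction. Classes of at least 7 loci, and all other genes named, were chosen after their values were seen. The alternatives were 2 pseudocounts, 3 scalings, 2 minimums, loci with 1 ID, a 4-fold limit and A2 as a way in. Sums without a dehydrin gene and without LTPL44 and LTPL45 were added after seeing the data.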

Additional observations from a re-analysis of the deposited data

How the results depend on the processing

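No paired analysis was possible because the deposited table holds 1 combined value per stage, and for the same reason no library could be left out and no replicate block fitted. Values were taken as little changed when counts stayed within 1.5 times and log2 values within 1.5-fold. A 4-fold limit in place of 2-fold left 2761 loci higher and 1499 lower, 26 stress loci higher, 104 loci with opposed steps and 174 with opposed steps and a net under the limit, 2 of them stress loci. With a pseudocount of 0.1 FPKM, 271 loci had opposed steps, and 2 stress loci had them with a net within 2-fold. That last count was 1 at a common FPKM sum and 1 with median-of-ratios scaling, where the HSP20-like gene passed the limit of its first step. With A3 or A1 at 5 FPKM or more, 105 loci had opposed steps, 49 had them with a net within 2-fold, 14 stress loci were lower in A3, 2 stress loci had opposed steps, and the median of the biotic stress class was −0.68 in place of 1.54. Opposed steps with a net within 2-fold were met at 411 loci without a minimum and at 357 with A2 as a way in, with 3 stress loci in each. With quantile normalization, 1 stress locus had 2 small steps, and loci higher and lower in A3 numbered 4283 and 4624. The other counts and the median over all members stayed within the limits. Of 205 log2 values of 41 named genes under the pseudocounts and scalings, 169 stayed within 1.5-fold and 0 changed sign, and of 104 list medians 92 stayed. In all, 3 list medians changed sign, that of the biotic stress class as above, that of DnaJ proteins at 5 FPKM or more (1.40 in place of −0.16) and that of LEA proteins and dehydrins with a pseudocount of 0.1 FPKM (−0.12 in place of 0.41). Low loci depend most on the pseudocount, and the depth that would bound them is unknown.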
